A study of Mus musculus with 9 samples.

Results

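The kinase SYK, the adaptors and enzymes it acts on, and the CARD9-BCL10-MALT1 complex at the end of that route were followed in mouse ear by 3' tag RNA-Seq, which reads transcripts near their 3' end. The 10 genes were chosen by name for their place in the pathway: the kinases Syk and Btk, the adaptors Lcp2 (SLP-76) and Blnk, the exchange factor Vav1, the enzymes Plcg2 and Pik3cg, and Card9, Bcl10 and Malt1. They are 10 of 54838 genes in the deposited tables. A filter on low counts kept 8 of them among 13807 tested genes, and left out Btk and Card9.

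All mice were C57BL/6 and 10 weeks old, and the 9 libraries fall into 3 groups of 3. Wild-type mice received DNA of a minicircle (MC, a DNA circle stripped of plasmid backbone) for GFP or for IL-23, and MDL1-/- mice, written Mdl-1-/- here, received the one for IL-23; each injection was 15 µg into the tail vein under hydrodynamic pressure, a route known to express DNA mainly in the liver. There was no Mdl-1-/- group with GFP, so a genotype difference that was there before IL-23 cannot be told apart from a difference in the response to it. The time between injection and sampling is not given in the sources used here, and nothing in the labels says that libraries came from separate animals, so p-values measure only the spread between these libraries, which may be technical.

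MDL-1, encoded by Clec5a, is a myeloid receptor whose adaptor DAP12 carries an ITAM, a paired tyrosine motif. Once Src-family kinases phosphorylate the ITAM, SYK docks on it and phosphorylates SLP-76, BLNK, VAV1 and PLCγ2, with BTK helping to activate the last. PLCγ2 makes the second messengers that open the calcium route and activate protein kinase C, which switches CARD9 on to assemble BCL10 and MALT1 and so to start NF-κB. In skin this route is known from myeloid cells that sense fungi through C-type lectins, while CARD14 takes the place of CARD9 in keratinocytes.

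Library totals ran from 3776188 to 5605713 counts. Values below are CPM, a gene's count relative to the total of its library, scaled by the trimmed mean of M-values (TMM), and a gene is called where the adjusted p is under 0.05. The targeted gene, Clec5a, had 2, 7 and 10 counts with GFP, 17, 21 and 11 with IL-23 in wild type and 10, 13 and 5 in ears labelled Mdl-1-/-. Which exons were deleted is not given in the sources used here; tags outside them check nothing. In whole ear, fewer cells of a type and less RNA per cell cannot be told apart. The summed level of 8 general leukocyte genes was 66.4 to 88.0 CPM with GFP, 143 to 198 CPM with IL-23 in wild type and 115 to 134 CPM with IL-23 in Mdl-1-/- ears; 6 of 8 were called higher with IL-23 and 2 of 8 lower in Mdl-1-/-. Of 13 neutrophil genes 8 were tested, and 7 were higher with IL-23 and 2 lower in Mdl-1-/-; summed without S100a8 and S100a9 they stood at 89.8 to 141, 279 to 322 and 182 to 235 CPM in the same order of groups. Of 11 tested monocyte and macrophage genes, 2 were called higher and 1 lower with IL-23, and 1 higher in Mdl-1-/-. Over all tested genes the shares were 22.9% higher and 21.7% lower with IL-23, and 7.58% higher and 10.1% lower in Mdl-1-/-. The 8 genes of B and plasma cells summed to 0.229 to 2.46 CPM over the libraries, none passed the filter, and Cd79a and Cd79b, which mark B cells, had no count in any library. The part of these shifts in the results below was not tested.

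The start regions of Lcp2, Vav1 and Pik3cg are shown because Lcp2 and Vav1 had the largest fold changes of the tested members and Pik3cg was called in no comparison. Each stretch is the RefSeq sequence before the start (GRCm38.p6), outside annotated exons, 5′ to 3′ on the gene's strand, with a match to the PU.1 letters in capitals.
Lcp2 (chr11:34046678-34046919, plus strand): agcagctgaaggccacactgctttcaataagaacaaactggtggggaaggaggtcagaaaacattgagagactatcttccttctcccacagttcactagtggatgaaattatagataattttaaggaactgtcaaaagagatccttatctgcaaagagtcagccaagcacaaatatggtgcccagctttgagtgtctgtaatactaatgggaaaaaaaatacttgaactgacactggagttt
Vav1 (chr17:57278850-57279099, plus strand): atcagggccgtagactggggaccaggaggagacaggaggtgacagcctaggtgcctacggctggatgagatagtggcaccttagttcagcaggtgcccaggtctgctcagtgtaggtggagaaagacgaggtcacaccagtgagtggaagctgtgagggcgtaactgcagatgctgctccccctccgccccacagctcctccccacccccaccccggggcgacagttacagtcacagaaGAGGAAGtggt
Pik3cg (chr12:32208660-32208909, minus strand): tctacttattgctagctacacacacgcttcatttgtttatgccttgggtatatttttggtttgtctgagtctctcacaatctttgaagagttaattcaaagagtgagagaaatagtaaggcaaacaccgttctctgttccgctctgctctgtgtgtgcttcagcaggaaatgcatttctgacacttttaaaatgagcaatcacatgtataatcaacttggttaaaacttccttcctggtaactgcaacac

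RefSeq's table held 11 windows, of 250 bases before to 50 after a start, for 9 of the 10 genes. PU.1, a transcription factor of myeloid and B cells, has the core letters GAGGAAG. On either strand these letters were found in 4 of the 11 windows, those of Vav1 and Btk and both of Pik3cg, and in 13.6% of all 32851 windows. In Vav1 the match begins at position -11 from the start. In the Pik3cg window printed above the matches begin at -1 and 37, so none lies whole in the printed bases, and its other window holds the same matches since the windows overlap. There was no match to RUNX (TGTGGT), AP-1 (TGANTCA), STAT (TTCNNNGAA), to the core promoter box TATAAA or to NF-κB letters in any of the 11 windows; over all windows these were found in 16.8%, 7.81%, 8.30%, 13.6% and 0.411%. The regions differed in base composition: the Lcp2 window is 43.3% G and C with 0 CpG, the Pik3cg window 40.7% with 4 and the Vav1 window 61.7% with 11, against a median of 52.7% and 7 CpG over all windows. These matches are letters in a window and carry no measurement of binding.

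With IL-23 in wild-type ears, 6 of the 8 tested genes rose and 0 fell: Syk, Lcp2, Blnk, Vav1, Plcg2 and Malt1, by 2.18-fold to 5.96-fold. In that comparison 22.9% of all tested genes were called higher and 21.7% lower. Bcl10 and Pik3cg were not called. Under IL-23, 4 of the 8 were lower in Mdl-1-/- than in wild-type ears (Syk, Lcp2, Vav1 and Malt1) and 0 higher, where 10.1% of all tested genes were lower and 7.58% higher. Against wild-type GFP, Mdl-1-/- ears with IL-23 had 1 of the 8 called higher, Blnk, and 0 lower, with 10.2% of all tested genes higher and 6.93% lower. The median log2 fold change of the 8 was 1.33, -0.67 and 0.54 in these 3 comparisons, and that of all tested genes -0.04, 0.00 and -0.02. Each pair of comparisons shares a group of libraries, so they are not independent. A gene can pass the filter through 1 group alone, so these counts describe the tested genes only. Lcp2 (9, 8 and 17 counts with GFP) and Vav1 (10, 11 and 8) passed it only through libraries with IL-23. The number called higher with IL-23 is therefore in part set by the filter.

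**Figure D1:**
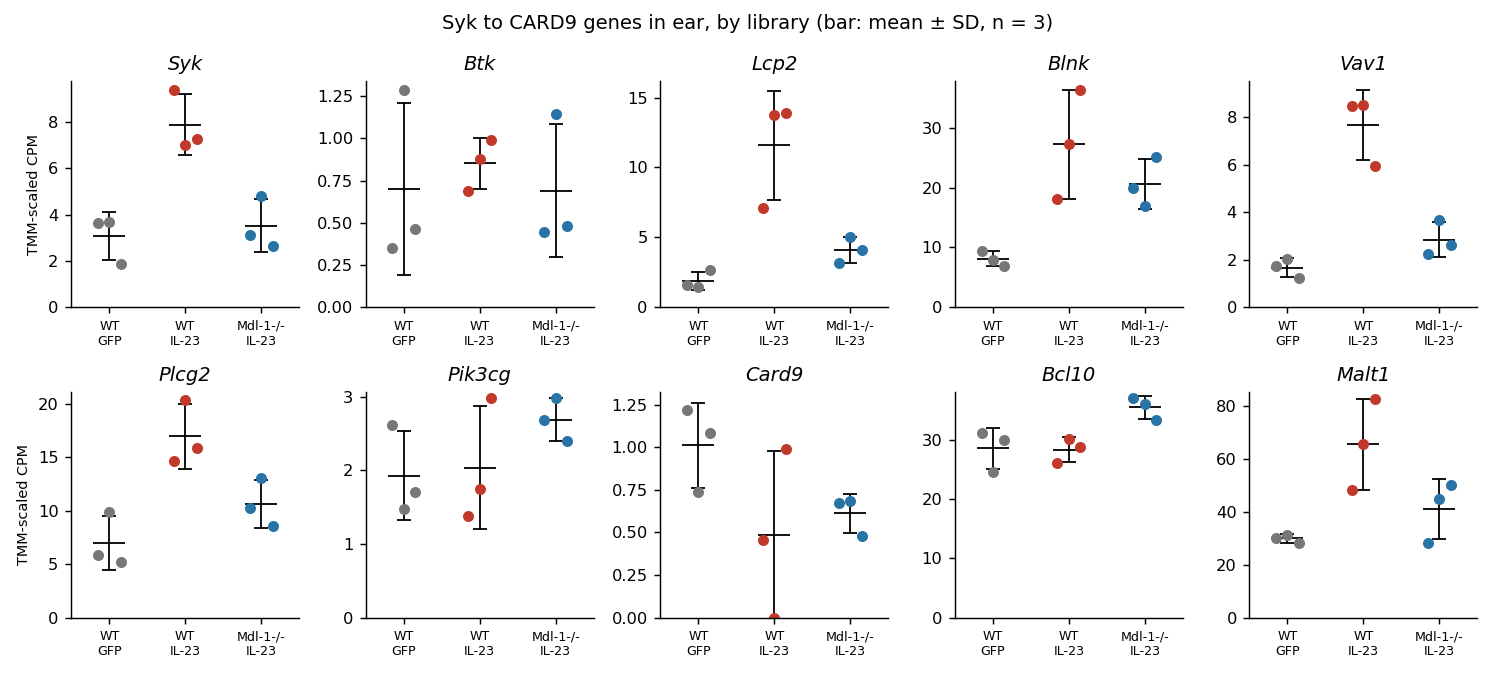
TMM-scaled CPM of the 10 genes (vertical axes, linear, from 0) in wild-type (WT) GFP, WT IL-23 and Mdl-1-/- IL-23 ears; points are libraries and bars the mean ± SD of 3. The WT IL-23 points of Syk, Lcp2, Vav1 and Plcg2 lie above all other points, and those of Btk, Card9 and Pik3cg overlap the other groups.

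Syk, the kinase that reads the phosphorylated ITAM (chr13:52583173-52648792, plus strand, GRCm38), was measured at 3.65, 3.67 and 1.86 CPM in the wild-type GFP libraries, 9.40, 7.01 and 7.27 CPM with IL-23, and 3.13, 4.80 and 2.64 CPM in Mdl-1-/- ears with IL-23. Every wild-type IL-23 library was above every other, and the GFP and Mdl-1-/- libraries overlapped. The means were 3.06 ± 1.04, 7.89 ± 1.31 and 3.52 ± 1.14 CPM (SD, n = 3). IL-23 raised Syk 2.60-fold in wild type (log2 1.38, SE 0.35, adjusted p = 0.00447), and it was 2.23-fold lower in Mdl-1-/- than in wild-type ears with IL-23 (log2 -1.16, SE 0.35, adjusted p = 0.0329). The second call was lost on leaving out any of 5 single libraries: wild-type IL-23 replicate 1 (adjusted p = 0.0969), 2 (0.0724) or 3 (0.0662), or Mdl-1-/- replicate 1 (0.104) or 3 (0.117). Between Mdl-1-/- IL-23 and wild-type GFP ears the log2 difference of Syk was 0.22 (SE 0.37, adjusted p = 0.732).

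Btk, the Tec-family kinase that acts on PLCγ2 (chrX:134542336-134583570, minus strand), was near the limit of detection. It had 2, 7 and 3 counts with GFP, 3, 4 and 3 with IL-23 in wild type, and 2, 5 and 2 in Mdl-1-/-. The groups overlapped. The pooled ratio of IL-23 to GFP was 1.23 (exact 95% interval 0.476 to 3.11, counting error only). The interval leaves out the spread between libraries and holds both a fall and a rise, so Btk has no direction here.

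Lcp2 encodes SLP-76, the scaffold that brings VAV1 and phospholipase C together (chr11:34046920-34092295, plus strand). It stood at 1.57, 1.47 and 2.63 CPM with GFP, 7.10, 13.8 and 13.9 CPM with IL-23 in wild type, and 3.13, 5.03 and 4.07 CPM in Mdl-1-/- ears. No 2 groups overlapped, and the Mdl-1-/- libraries lay between the others. The means were 1.89 ± 0.644, 11.6 ± 3.89 and 4.08 ± 0.950 CPM (SD, n = 3). Lcp2 rose 5.96-fold with IL-23 (log2 2.58, SE 0.36, adjusted p = 5.02e-05), the largest change among the 8, and was 2.82-fold lower in Mdl-1-/- (log2 -1.49, SE 0.34, adjusted p = 0.00901). Without wild-type IL-23 replicate 2 the latter had an adjusted p of 0.0553. Mdl-1-/- IL-23 ears exceeded GFP ears by log2 1.08 (SE 0.40, adjusted p = 0.0714), which was called without wild-type IL-23 replicate 1 (adjusted p = 0.0476). An antisense gene, 4930469K13Rik, overlaps Lcp2 and had 0 to 2 counts per library.

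Blnk, the SLP-76 relative best known from B cells and also present in macrophages (chr19:40928927-40994535, minus strand), was called against GFP in both IL-23 groups and not between genotypes. It was at 9.40, 7.90 and 6.96 CPM with GFP, 18.1, 27.4 and 36.4 CPM with IL-23 in wild type, and 19.9, 16.9 and 25.2 CPM in Mdl-1-/- ears. Both IL-23 groups were wholly above GFP and overlapped each other. Their means were 27.3 ± 9.13 and 20.7 ± 4.17 CPM against 8.08 ± 1.23 CPM with GFP (SD, n = 3). Blnk rose 3.34-fold in wild type (log2 1.74, SE 0.26, adjusted p = 7.17e-05) and was 2.55-fold above wild-type GFP in Mdl-1-/- ears (log2 1.35, SE 0.26, adjusted p = 0.00210). Its log2 difference between genotypes with IL-23 was -0.39 (SE 0.24, adjusted p = 0.280). Of 8 tested genes of dendritic and Langerhans cells, 6 were higher with IL-23 and 0 were called between genotypes. In Mdl-1-/- IL-23 ears 8 were higher than in wild-type GFP ears. The shares of all tested genes called higher were 22.9%, 7.58% and 10.2% in these comparisons. Of 11 tested monocyte and macrophage genes, 2 were higher and 1 lower with IL-23. Between genotypes 1 was higher, and 0 were called against GFP. No B and plasma cell gene passed the filter, and the part of any cell type in the Blnk levels was not tested.

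Vav1, the exchange factor that activates Rac in blood cells (chr17:57279100-57328031, plus strand), was at 1.74, 2.02 and 1.24 CPM with GFP, 8.48, 8.54 and 5.95 CPM with IL-23 in wild type, and 2.24, 3.66 and 2.64 CPM in Mdl-1-/- ears. The 3 groups did not overlap. Mean levels were 1.67 ± 0.397, 7.66 ± 1.48 and 2.84 ± 0.734 CPM (SD, n = 3). The rise with IL-23 was 4.62-fold (log2 2.21, SE 0.36, adjusted p = 0.000152), and the Mdl-1-/- level was 2.704-fold lower than wild type (log2 -1.44, SE 0.35, adjusted p = 0.0111). It was not called without wild-type IL-23 replicate 2 (adjusted p = 0.0553) or Mdl-1-/- replicate 1 (0.0513). Against GFP the Mdl-1-/- difference in Vav1 was log2 0.77 (SE 0.39, adjusted p = 0.192).

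**Figure D2:**
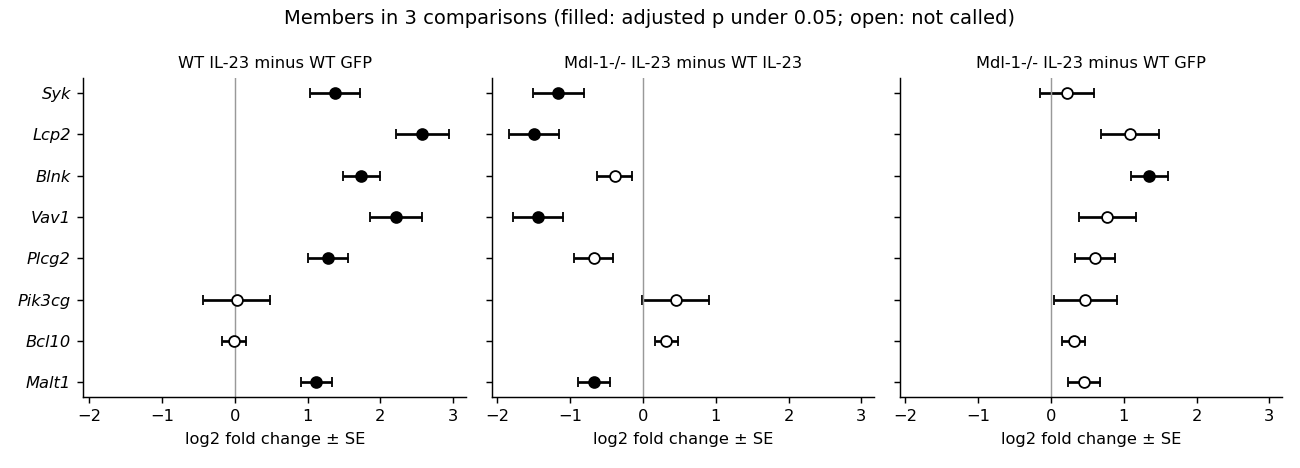
Log2 fold change ± SE (horizontal axes) of the 8 tested genes in the 3 comparisons, each named as first minus second group; filled points have an edgeR adjusted p under 0.05. Lcp2 and Vav1 have the largest values in the left and middle panels, and Blnk alone is filled on the right.

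Plcg2, the phospholipase that splits membrane PIP2 (chr8:117498291-117635142, plus strand), was measured at 5.92, 9.92 and 5.26 CPM with GFP, 14.7, 20.4 and 15.9 CPM with IL-23 in wild type, and 10.3, 13.04 and 8.63 CPM in Mdl-1-/- ears. Wild-type IL-23 libraries were above the rest, and GFP and Mdl-1-/- libraries overlapped. It rose 2.43-fold with IL-23 (log2 1.28, SE 0.27, adjusted p = 0.00129). The Mdl-1-/- difference from wild type was log2 -0.67 (SE 0.27, adjusted p = 0.0895), not called although the groups did not overlap. Against GFP it was log2 0.61 (SE 0.28, adjusted p = 0.146), and 0.97 without wild-type GFP replicate 2, the highest GFP library (adjusted p = 0.0274).

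Pik3cg, the catalytic subunit of PI3-kinase γ that acts mainly below G protein-coupled receptors (chr12:32173473-32208659, minus strand), had 15, 8 and 11 counts with GFP, 6, 8 and 9 with IL-23 in wild type, and 12, 13 and 10 in Mdl-1-/- ears. In CPM the 3 groups overlapped, at means of 1.93 ± 0.603, 2.03 ± 0.837 and 2.68 ± 0.289 (SD, n = 3). No comparison called it: log2 0.03 (SE 0.46, adjusted p = 0.970) with IL-23, 0.45 (SE 0.45, adjusted p = 0.528) between genotypes, and 0.47 (SE 0.43, adjusted p = 0.483) between Mdl-1-/- IL-23 and GFP ears. The sign of the first turned under several alternatives, so Pik3cg has no direction there.

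Of the CARD9-BCL10-MALT1 complex, Bcl10 and Malt1 were tested, and Malt1 was called with IL-23 and between genotypes. Card9, the myeloid scaffold (chr2:26352176-26360918, minus strand), had 7, 4 and 7 counts with GFP, 2, 0 and 3 with IL-23 in wild type, and 3, 3 and 2 in Mdl-1-/- ears. In CPM the GFP and wild-type IL-23 groups overlapped, and all Mdl-1-/- libraries were below all GFP libraries (highest 0.686, lowest 0.735 CPM). The pooled counts were 18, 5 and 8, and the pooled ratio of IL-23 to GFP was 0.410 (exact 95% interval 0.119 to 1.15, counting error only). An exact two-sided permutation test of its CPM gave p = 0.2 for IL-23 against GFP, 0.7 between genotypes and 0.1 between Mdl-1-/- IL-23 and GFP ears, where 0.1 is the smallest that 3 libraries against 3 allow. The exact interval leaves out the spread between libraries and holds both a fall and a rise, so Card9 has no direction with IL-23. The gene Dnlz, which lies just past the Card9 3' end on the same strand, had 10 to 35 counts per library, and the antisense Gm13562 had 0.

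Bcl10, the linker that forms filaments between CARD9 and MALT1 (chr3:145922804-145934356, plus strand), was at 31.2, 24.6 and 30.01 CPM with GFP, 26.1, 30.2 and 28.8 CPM with IL-23 in wild type, and 37.1, 36.1 and 33.3 CPM in Mdl-1-/- ears. The wild-type groups overlapped, and the Mdl-1-/- libraries were above all wild-type ones. Differences were log2 -0.01 (SE 0.16, adjusted p = 0.957) with IL-23, 0.32 (SE 0.16, adjusted p = 0.174) between genotypes and 0.31 (SE 0.16, adjusted p = 0.191) between Mdl-1-/- IL-23 and GFP ears, none called. Scaled by library totals, an alternative added after the data were seen, Bcl10 was lower with IL-23 (log2 -0.42, adjusted p = 0.0465) where the median of all tested genes was -0.44.

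Malt1, the paracaspase that cleaves NF-κB regulators (chr18:65430938-65479067, plus strand), stood at 30.3, 31.4 and 28.3 CPM with GFP, 48.4, 65.7 and 82.7 CPM with IL-23 in wild type, and 28.2, 45.1 and 50.1 CPM in Mdl-1-/- ears. All wild-type IL-23 libraries were above GFP, and Mdl-1-/- libraries overlapped both groups. It rose 2.18-fold with IL-23 (log2 1.12, SE 0.22, adjusted p = 0.000699). Malt1 was 1.59-fold lower in Mdl-1-/- than in wild type (log2 -0.67, SE 0.22, adjusted p = 0.0430), close to the threshold. Leaving out 1 library ended that call for GFP replicate 1 (adjusted p = 0.0581), 2 (0.0525) or 3 (0.0614), wild-type IL-23 replicate 2 (0.122) or 3 (0.184), or Mdl-1-/- replicate 1 (0.170) or 2 (0.0614). Against GFP the Mdl-1-/- difference was log2 0.45 (SE 0.22, adjusted p = 0.168), and it was called without Mdl-1-/- replicate 1 (log2 0.67, adjusted p = 0.0321).

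The spread between libraries of 1 group also differed among the genes. Over 9 libraries the depth ran from 31 counts each for Btk and Card9 to 1821 for Malt1. The within-group variance was 10.4 times the counting variance for Malt1, 5.41 times for Blnk and 3.18 times for Plcg2. For Vav1 (0.783), Pik3cg (0.819), Card9 (0.862), Btk (1.08) and Bcl10 (1.17) it was about that of counting alone, and Lcp2 (2.60) and Syk (1.57) lay between. Among wild-type IL-23 libraries, replicate 3 had the highest Malt1 and Blnk and replicate 1 the highest Syk.

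In the authors' deposited table for IL-23 against GFP in wild type, the same 6 genes had a false discovery rate under 0.05 (Syk 0.00151, Lcp2 6.43e-10, Blnk 7.09e-09, Plcg2 0.000185, Vav1 3.57e-07 and Malt1 2.27e-06). In the authors' deposited table for Mdl-1-/- against wild type with IL-23, Lcp2 (0.00334) and Vav1 (0.00986) were under 0.05, and Syk (0.0656) and Malt1 (0.171) were not.

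Set against the summed CPM of the 8 leukocyte genes in the same library, the genes separated in another way; such ratios show unequal change within a library and carry no test here. Lcp2 was 2.25%, 1.67% and 3.96% of that sum with GFP, 4.97%, 7.46% and 7.01% with IL-23 in wild type, and 2.48%, 3.74% and 3.55% in Mdl-1-/- ears. Vav1 was 2.50%, 2.30% and 1.86%, then 5.93%, 4.62% and 3.01%, then 1.77%, 2.72% and 2.30%. For both, all wild-type IL-23 libraries were above all others. The ratios of Syk, Blnk, Plcg2 and Malt1 overlapped between wild-type GFP and IL-23. Between genotypes with IL-23 those of Blnk, Plcg2 and Malt1 overlapped too. The Syk ratio did not, at 3.67% to 6.57% in wild type and 2.30% to 3.57% in Mdl-1-/-. The mean CPM of Bcl10 was 28.6 with GFP and 28.4 with IL-23 in wild type, while the mean leukocyte sum was 74.6 and 175 CPM. As a ratio to that sum, Bcl10 was at 28.0% to 45.2% with GFP, 14.5% to 18.3% with IL-23 in wild type and 26.9% to 29.4% in Mdl-1-/-. Pik3cg was 1.67% to 3.75%, 0.947% to 1.50% and 2.09% to 2.21% of the sum.

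**Figure D3:**
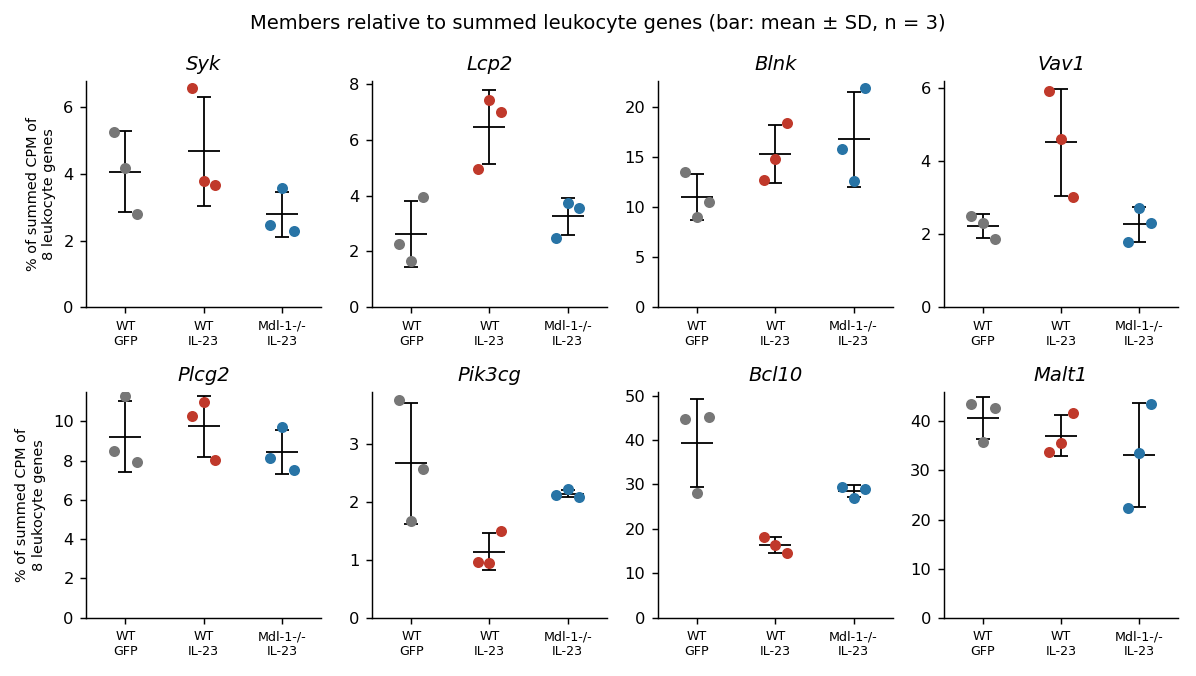
CPM of each tested gene as a percentage of the summed CPM of 8 general leukocyte genes in the same library (vertical axes, linear, from 0); points are libraries and bars the mean ± SD of 3. Lcp2 and Vav1 are highest in WT IL-23, Bcl10 and Pik3cg lowest there, and Syk, Blnk, Plcg2 and Malt1 overlap between WT GFP and WT IL-23.

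The other genes of the route were taken from 12 lists with 164 genes, of which 130 were tested. With IL-23 in wild type 58 were higher and 13 lower (median log2 0.49), where 22.9% of all tested genes were higher and 21.7% lower. Between genotypes with IL-23, 8 were higher and 15 lower in Mdl-1-/- (median -0.19); these are near the shares over all tested genes, 7.58% higher and 10.1% lower. In Mdl-1-/- IL-23 over GFP ears, 22 were higher and 2 lower (median 0.23), against 10.2% and 6.93% of all tested genes. The counts per list below are descriptions to be read against these shares, and no list was tested against the other genes.

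Upstream of SYK, 19 ITAM receptors and adaptors were listed and 11 passed the filter, some of them, such as Clec5a (2, 7 and 10 counts with GFP and 17, 21 and 11 with IL-23 in wild type), only through the wild-type IL-23 libraries, so their number called is in part set by the filter. With IL-23, 11 were higher, and 6 were lower in Mdl-1-/-. That last count ran from 1, without wild-type IL-23 replicate 2 or Mdl-1-/- replicate 3, to 9 when other single libraries were left out. Clec7a, the β-glucan receptor dectin-1, had 39, 70 and 64 counts with GFP, 479, 557 and 417 with IL-23 and 101, 185 and 81 in Mdl-1-/- ears. It rose 12.5-fold (adjusted p = 2.66e-06) and was 4.37-fold lower in Mdl-1-/- (adjusted p = 0.00107), and no single library left out ended either call. Clec4n, which encodes dectin-2, rose 7.08-fold (adjusted p = 2.85e-05). Tyrobp, which encodes DAP12, rose 3.23-fold (adjusted p = 0.000368) and was 2.21-fold lower in Mdl-1-/- (adjusted p = 0.0173), not called without wild-type IL-23 replicate 2 (0.0895) or Mdl-1-/- replicate 3 (0.0667). Clec5a itself rose 3.73-fold with IL-23 (adjusted p = 0.00554), with a log2 difference of -0.92 in Mdl-1-/- (SE 0.47, adjusted p = 0.185).

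Of the Src-family kinases, Fgr, a kinase of myeloid cells, rose 3.74-fold with IL-23 (adjusted p = 0.00379). It had 5, 6 and 5 counts with GFP, 14, 14 and 13 with IL-23 in wild type and 16, 7 and 9 in Mdl-1-/- ears. Of 12 other proximal kinases and adaptors tested, 7 were higher with IL-23 and 0 were called between genotypes; under scaling by totals the first count was 1. Among 11 tested genes of PI3-kinase, Pik3r1, the regulatory subunit p85α, fell from 1146, 1184 and 1441 counts with GFP to 321, 386 and 183 with IL-23 (log2 -1.54, SE 0.16, adjusted p = 3.09e-06). In Mdl-1-/- ears Pik3r1 had 642, 505 and 442 counts, 1.67-fold above wild type with IL-23 (adjusted p = 0.00613). Of 18 tested negative regulators, 8 were higher and 1 lower with IL-23. The number higher was 4 without GFP replicate 3 and 3 under scaling by totals. Fgr, Lat (7, 5 and 3 counts with GFP) and Lilrb4a (8, 4 and 2) passed the filter only through libraries with IL-23. The numbers called higher in their lists are therefore in part set by the filter.

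Of 8 tested protein kinases C and CARD relatives, 3 were higher and 1 lower with IL-23. Prkcq, the protein kinase C θ of T cells, rose 5.63-fold (adjusted p = 2.72e-05) and was 2.14-fold lower in Mdl-1-/- (adjusted p = 0.0217), not called without wild-type IL-23 replicate 2 (0.0597) or 3 (0.124) or Mdl-1-/- replicate 1 (0.0921). Of 9 tested genes of T and innate lymphoid cells, 4 were higher with IL-23 and 1 was lower in Mdl-1-/-. Over all tested genes 22.9% were higher and 10.1% lower in these comparisons. The part of T cells in the Prkcq result was not tested. Card14, the keratinocyte counterpart of Card9, had 20, 19 and 19 counts with GFP, 15, 13 and 12 with IL-23 in wild type and 32, 32 and 38 in Mdl-1-/- ears. Its log2 difference with IL-23 was 0.03 (SE 0.33, adjusted p = 0.941), with a sign that changed under other scalings. Card14 was 2.32-fold higher in Mdl-1-/- than in wild type with IL-23 (log2 1.21, SE 0.31, adjusted p = 0.0146) and 2.37-fold above GFP (adjusted p = 0.00803). The former was not called without wild-type IL-23 replicate 2 (0.0663) or Mdl-1-/- replicate 3 (0.0530). The summed level of 7 keratinocyte genes was 9152 to 12191 CPM with GFP and 19998 to 22152 CPM with IL-23 in wild type. It was 25776 to 28513 CPM in Mdl-1-/- ears, where 1 of the 7 was called higher and 2 lower than in wild type with IL-23. Their part in the Card14 result was not tested. Card10, the counterpart in other non-blood cells, was not called (log2 -0.30, SE 0.26, adjusted p = 0.366 with IL-23), but was called lower under scaling by totals (log2 -0.70, adjusted p = 0.0477).

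Below the complex, 6 of 17 tested ubiquitin and IKK genes were higher and 2 lower with IL-23, and 3 were lower in Mdl-1-/-. The 2 lower were 1 without GFP replicate 1 or 2 or wild-type IL-23 replicate 2 or 3, with DESeq2 and with no count filter, and under scaling by totals 2 were higher and 4 lower. Ikbkb, the IKKβ kinase, rose 1.48-fold with IL-23 (adjusted p = 0.00277) and was 1.68-fold lower in Mdl-1-/- (adjusted p = 0.00265). Chuk, the IKKα kinase, fell by 1.01 on the log2 scale with IL-23 (adjusted p = 0.00223). Its log2 difference in Mdl-1-/- was 0.58 (SE 0.24, adjusted p = 0.0987), not called. Of 9 tested NF-κB subunits and inhibitors, 8 were higher with IL-23 (5 under scaling by totals). Nfkbia, the inhibitor IκBα and itself a target of NF-κB, rose 3.49-fold (adjusted p = 1.10e-06) and was 1.56-fold lower in Mdl-1-/- (adjusted p = 0.0117), not called without Mdl-1-/- replicate 1 (0.0560) or 3 (0.0693). Bcl3, an atypical IκB, rose 12.9-fold (adjusted p = 0.000246). It had 20, 3 and 4 counts with GFP and passed the filter only through libraries with IL-23. The number called higher in its list is therefore in part set by the filter. Among 9 tested genes for proteins that MALT1 cleaves, 3 were higher (22.9% of all tested genes were): Zc3h12a, which encodes the RNase regnase-1 (5.43-fold, adjusted p = 0.00625), Map3k14, the NIK kinase (4.53-fold, adjusted p = 0.000603), and N4bp1 (1.88-fold, adjusted p = 0.000118).

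Of 16 tested genes of the calcium arm, 6 were lower and 2 higher with IL-23 (median log2 -0.17, against -0.04 for all tested genes), and 4 were higher and 0 lower in Mdl-1-/- (median 0.03). The count of 4 was 2 without wild-type IL-23 replicate 2 or Mdl-1-/- replicate 1. Stim1, the calcium sensor of the endoplasmic reticulum, fell from 796, 808 and 988 counts with GFP to 270, 332 and 175 with IL-23 (log2 -1.19, SE 0.14, adjusted p = 1.06e-05) and had 547, 447 and 501 counts in Mdl-1-/- ears, 1.79-fold above wild type (adjusted p = 0.00206). Markers of other tissue in the ear were measured in the same libraries: with IL-23, 4 of 4 tested adipocyte genes were lower (median log2 -2.14) and 1 of 5 skeletal muscle genes (median -1.29), while between genotypes 0 of 4 and 1 of 5 were called, the latter higher in Mdl-1-/-. Their part in the result was not tested. Nfatc3, a transcription factor of this arm, was 1.74-fold higher in Mdl-1-/- (adjusted p = 0.00423). Of 10 tested Ras and MAP kinase genes, 5 were higher and 2 lower with IL-23; under scaling by totals these were 2 and 4. Of 10 cytokine genes known as CARD9 outputs, 4 were tested. Of these, 0 were called between genotypes and 2 were called higher with IL-23. Tnf rose 5.95-fold (adjusted p = 0.000302). Il1b had 21, 259 and 466 counts with GFP, 1870, 2525 and 1865 with IL-23 in wild type and 597, 489 and 61 in Mdl-1-/-. It rose 12.9-fold with IL-23 (adjusted p = 0.0366), a call lost with no count filter (0.0753), with the replicate block (0.0867), and on leaving out GFP replicate 1 (0.0518), 2 (0.0849) or 3 (0.0669), wild-type IL-23 replicate 1 (0.0633), 2 (0.0800) or 3 (0.0816), or Mdl-1-/- replicate 2 (0.0571).

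**Figure D4:**
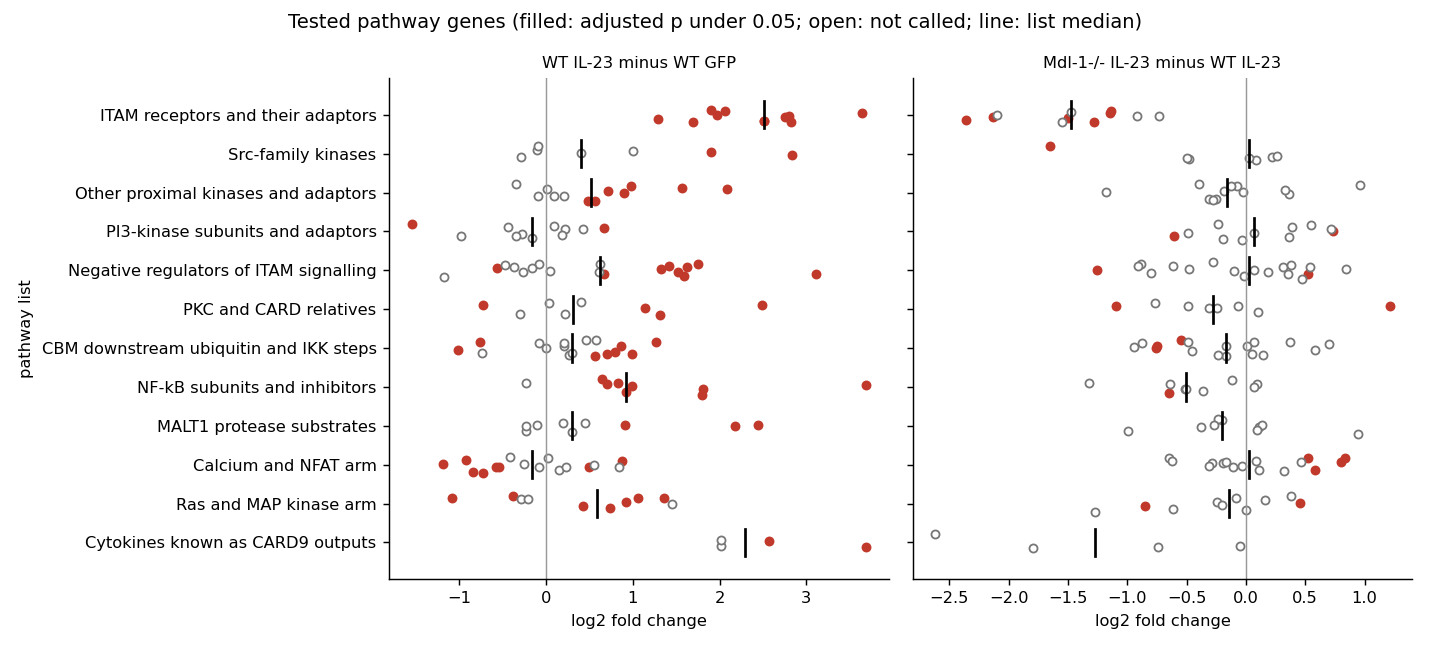
Log2 fold change (horizontal axes) of each tested gene in 12 pathway lists (vertical axis), with IL-23 in wild type (left) and for Mdl-1-/- against wild type with IL-23 (right); filled points have an edgeR adjusted p under 0.05 and a vertical line is the list's median. The 11 tested ITAM receptor and adaptor genes lie right of 0 on the left, and 6 are filled left of 0 on the right.

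The tested genes whose log2 CPM over the 9 libraries was most like each member were found by Pearson's r, which follows group differences and shared library effects alike and is given as a description. The closest were Gm7336 (0.991), Sae1 (0.986) and Gpat4 (0.985) for Vav1, Tmem183a (0.985), Ptpn5 (0.981) and Gm37498 (0.980) for Lcp2, and Ppp1r8 (0.983), Slc35a4 (0.980) and Bmp7 (0.976) for Syk. For Blnk they were Cd52 (0.983), Parp8 (0.980) and Rpl15 (0.978), and for Malt1 Ccdc12 (0.987), Mapk14 (0.985) and Smim22 (0.982). The best values were lower for Bcl10 (Gm6450, 0.948) and Pik3cg (Gm26315, 0.937), and for Plcg2 the best was Gm6681 (0.988).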

How the data were processed

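RNA from ears was sequenced as 3' tags in 9 libraries. Per the submitters' processing notes, STAR 2.7.0a, featureCounts and edgeR were used and the build is given as GRCh38.p6, a human name, while the gene identifiers are those of mouse. No source used here gives the annotation release, the strand setting or the handling of multimapping reads. The authors' deposited tables hold raw counts per gene, and the authors' deposited edgeR tables hold log2 fold changes, log2 CPM and p-values with false discovery rates. Their table for Mdl-1-/- against wild type subtracts in the opposite direction, so its sign was turned. Libraries stand in several count tables with identical values (0 values differed) and were joined.

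Tests used edgeR 4.0.16 (R 4.3.3; filterByExpr, minimum count 10 and total 15; TMM; 1 robust quasi-likelihood fit with 3 group means; two-sided F-test with 6 residual degrees of freedom before shrinkage; Benjamini-Hochberg adjustment over 13807 genes; SE derived from F). Btk and Card9, below the filter, got pooled ratios with exact intervals and permutation tests; the lowest chi-square per gene between replicates was 4.60, so none was taken as a copy. Alternatives were upper-quartile, RLE and total-count scaling, DESeq2 1.42.0, no filter, a minimum count of 30, non-robust dispersions, a replicate block and leaving out each library. The procedure was tested on simulated data. Symbols and positions came from GENCODE M21 on GRCm38 (115 identifiers had no symbol), promoters from RefSeq. Members and lists were chosen with earlier results of these data known. Named were all members, up to 3 called genes with the largest changes per pathway list and comparison, some genes fixed by name, and the 3 genes most like each member. Some listed genes are not reported here.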

Additional observations from a re-analysis of the deposited data

How the results depend on the processing

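None of the 6 genes higher with IL-23 lost its call under any alternative that tested it; a minimum count of 30 left out Syk, Vav1 and Pik3cg. Members lower in Mdl-1-/- than in wild type with IL-23 numbered 4, but 2 with total-count scaling and 2 with a minimum count of 30, and 0 to 3 with 1 library left out (0 without wild-type IL-23 replicate 2, 1 without Mdl-1-/- replicate 1). With total-count scaling Syk (adjusted p = 0.0612) and Malt1 (0.0969) were not called there, nor Malt1 with upper-quartile scaling (0.0595). Members higher in Mdl-1-/- IL-23 than in GFP ears numbered 1, and 1 to 2 with 1 library left out. With total-count scaling 1 member, Bcl10, was lower with IL-23.

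Scaling moved the whole comparison. Of genes called, the share called higher with IL-23 was 51.3% with TMM, 38.9% with upper-quartile and 22.7% with total-count scaling; between genotypes it was 42.9%, 53.2% and 67.0%, and between Mdl-1-/- IL-23 and GFP ears 59.4%, 43.7% and 26.1%. Total-count scaling moved the median log2 fold change of all genes to -0.44, 0.16 and -0.27, and called 1627 genes higher and 5536 lower with IL-23, 1621 and 798 between genotypes, and 793 and 2240 against GFP. With 1 library left out, 447 to 1329 genes were higher and 666 to 1473 lower between genotypes, and 903 to 1653 higher and 417 to 1020 lower between Mdl-1-/- IL-23 and GFP ears. The cause was not tested.

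Signs that turned, none of them called: Bcl10 with IL-23 was 0.01 with RLE and 0.0095 with DESeq2, and between -0.0857 and 0.0619 with 1 library left out. Pik3cg with IL-23 was -0.38 with total-count and -0.13 with upper-quartile scaling, and from -0.28 to 0.31 with 1 library left out. Card14 with IL-23 was -0.37 and -0.12 under those scalings, -0.0218 with a minimum count of 30 and -0.0591 to 0.16 with 1 library left out. Card10 between genotypes ran from -0.16 to 0.27 with 1 library left out. Syk in Mdl-1-/- IL-23 against GFP was -0.0344 with total-count scaling and -0.0565 to 0.41 with 1 library left out.

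Replicate numbers did not pair the libraries: same-numbered libraries' deviations correlated at -0.09 to 0.23 and 4 of 9 libraries correlated best with their own number. With the replicate block 2 members were higher in Mdl-1-/- IL-23 than in GFP ears (Lcp2, adjusted p = 0.0471), Plcg2 was lower in Mdl-1-/- than wild type (adjusted p = 0.0474), and 3206 genes were higher and 3051 lower with IL-23. Btk and Card9, at 0 to 7 counts per library, are limited by depth.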
